A study of Drosophila melanogaster with 18 samples.

Results

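The genes described here encode cuticle proteins of the Rebers-Riddiford type, the largest family of structural proteins in the insect exoskeleton. Members were the genes whose current symbol begins with Cpr and a digit, Ccp84A, Lcp and a digit, Acp65A, Pcp, Edg78E or Edg84A. The array held 73 probe sets that match 1 such gene each, for 71 genes among the 10844 genes named by 1 probe set or more. The reference annotation lists 98 genes that meet the same rule, so the family was measured in part. A further 5 probe sets each match 2 or 3 family genes with near-identical copies (Ccp84Aa with Ccp84Ab, Lcp65Ag1 with Lcp65Ag2, the same pair with Lcp65Ag3, Cpr65Av with Cpr65Aw, and Cpr67Fa1 with Cpr67Fa2), and are given as pairs or groups only. One probe set matches Cpr57A together with an odorant-binding protein gene and was left aside.

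Cuticle is an extracellular layer that epidermal, tracheal, foregut and hindgut cells secrete on their outer face. Its inner part is a mesh of chitin fibres in a protein matrix, and proteins of this family carry a conserved motif, the Rebers-Riddiford consensus, that binds chitin. In the fly embryo the cuticle of the coming larva is laid down late, after the epidermis has formed, and other members serve the pupa and the adult. E2f1 and E2f2 are the activating and the repressing E2F transcription factors of the fly, best known for the control of genes of DNA replication. Dp is their dimer partner, and Rbf1 is a retinoblastoma-type protein that binds E2F.

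RNA of whole embryos was hybridised to 18 arrays, 2 per group in 9 groups, each of about 200 to 700 embryos from a collection of 2 h that was then aged at 25 °C. At 8 to 10 h of age, the control was Arm-Gal4 crossed to yw, and the same driver, which carries the promoter of the broadly active gene armadillo, was crossed to E2f1/Dp, to E2f2/Dp, to E2f1336-805 (an E2f1 fragment without the DNA-binding domain that acts as a dominant negative, called the E2f1 fragment here) or to Rbf1. Also at 8 to 10 h there were null mutants of Dp (Dpa2/Dpa4) and of E2f1 (E2f17172/E2f191), picked by an automated embryo sorter as embryos without the Kr-GFP balancer. At 14 to 16 h there were the Arm-Gal4 by yw control and hand-picked E2f1 mutants of the same alleles. All controls thus carry the driver and no mutant group does, and picking of embryos is given for the mutants only. Where mutants are set against a control, the effects of genotype, driver, stock background and picking cannot be told apart. Between the 2 ages of E2f1 mutants, age and the way of picking cannot be told apart. The 6 comparisons with the control at 8 to 10 h share its 2 arrays. Whether the 2 samples of a group are separate collections is not stated in the labels. The p-values therefore rest on the spread between the 2 samples of a group, pooled over the 9 groups, and this spread may be technical.

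Array medians of the deposited signal lay between 209.15 and 247.75. Signal below 47.5, the 20th percentile of all normalised values, was set to that floor, and values at the floor have no order among them. Transcripts of the manipulated genes followed the labels where they passed the test: Dp was lower in Dp mutants (log2 change -1.68 ± 0.19, SE, adjusted p = 0.000374) and higher with E2f1/Dp (1.60 ± 0.19, 0.00147), E2f2 was higher with E2f2/Dp (3.29 ± 0.28, 5.12e-05) and Rbf was higher with Rbf1 (2.84 ± 0.35, 0.000482). E2f1 did not pass in its own groups at 8 to 10 h (2.30 ± 0.54, 0.163 with E2f1/Dp, and -1.87 ± 0.54, 0.0758 in the mutants). With the E2f1 fragment it did not pass either (1.23 ± 0.54, 0.402), so a rise of the fragment's transcript was not shown. With Rbf1 the E2f1 change was 1.82 ± 0.54 (0.125). A null allele need not lower the transcript. These p-values and those below are from limma with Benjamini-Hochberg adjustment over 8975 units, two-sided, with n = 2 arrays per group.

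Most of the family lay above the floor in each group, as did most probe sets of the array. The floor is a percentile and no call of detection. On single arrays, 49 to 63 of the 71 genes lay above the floor, with 49 on both fragment arrays and 63 on replicate 2 of the early E2f1 mutants, where the floor leaves 80.0% of all probe sets above it on each array. In the control at 8 to 10 h, 50 of the 71 genes lay above the floor on both arrays, and in the control at 14 to 16 h 60 did. The counts were 57 and 59 in E2f1 mutants at the 2 ages and 53 in Dp mutants, and 50, 48, 47 and 42 with E2f1/Dp, E2f2/Dp, Rbf1 and the E2f1 fragment. The mean signal was highest in the control at 14 to 16 h for 28 members and in E2f1 mutants at 14 to 16 h for 21, so 49 of the 71 peaked in a late group. 32 members were above the floor on both arrays of all 9 groups, and 5 were so in no group. The counts on both arrays and those of the late peaks were not set against all units. By chromosome arm, 34 members lie on 3L, 18 on 2R, 10 on 3R, 5 on 2L and 4 on X. The heat map of the 71 genes shows each array against the control at 8 to 10 h.

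**Figure D1:**
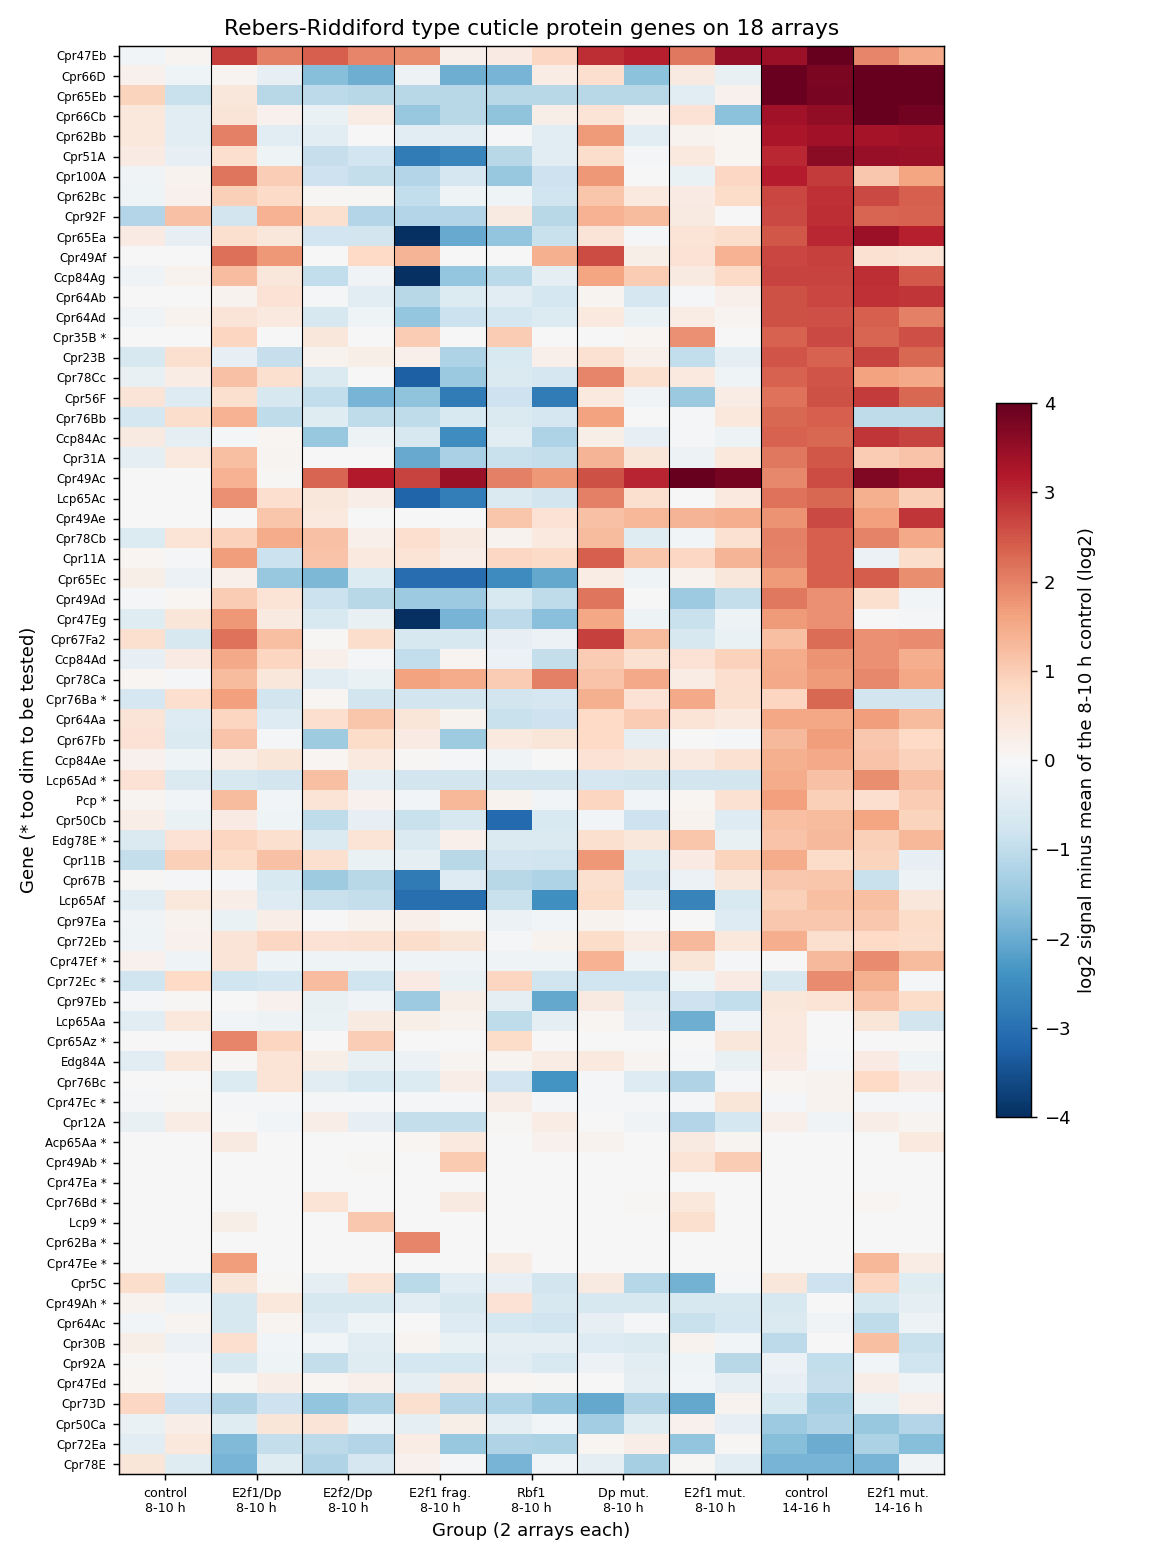
Heat map of the log2 signal of 71 cuticle protein genes (rows) on 18 arrays (columns, 2 per group) minus the mean of the 8 to 10 h control, with values under the floor set to it. Rows are sorted by the change in the 14 to 16 h control, and most of the rise lies in the last 4 columns, the groups of 14 to 16 h. In these groups 49 members had their highest mean, a count not set against all units.

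Of the 71 members, 54 passed the filter on dim probe sets and were tested, and 17 did not. A member could pass that filter through the group where it is high alone, so the counts below describe those 54, and results over all 71 follow where they were computed. Of the 17, 12 were above the floor on both arrays of some group.

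Between 8 to 10 h and 14 to 16 h in the control, 35 of the 54 tested genes rose and 3 fell, where 17.6% of all units rose and 25.6% fell. The median log2 change of the 54 was 1.87, against -0.19 over all units. With no filter on dim probe sets, 35 of the 71 rose and 2 fell, counts that were not set against all units of that fit. The 20 largest rises lay between 2.30 and 3.89 on the log2 scale. Whole embryos were measured throughout, so more cells of a type and more RNA per cell cannot be told apart.

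The largest rise was that of Cpr47Eb, a member of a 7-gene cluster at 47E. Its signal was the floor and 56.2 on the arrays of the 8 to 10 h control and 559 and 1054 on those of the 14 to 16 h control, a log2 change of 3.89 ± 0.56 (adjusted p = 6.38e-05). Cpr66D went from 207 and 161 to 2832 and 2505, a 14.6-fold rise (3.87 ± 0.73, adjusted p = 0.000589). The second probe set of Cpr66D read 316 and 162 at the early and 1852 and 2632 at the late age, so both probe sets of this gene were higher on all late control arrays. Cpr66Cb, Cpr62Bb, Cpr51A and Cpr100A rose by 3.46, 3.32, 3.32 and 2.97 on the log2 scale. Cpr51A had 1202 and 764 at 8 to 10 h and 7733 and 11792 at 14 to 16 h (9.96-fold, adjusted p = 3e-06).

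Members of the family often lie next to each other. In 4 of the 14 clusters with 2 or more tested members, at 49A, 62B, 65E and 78C, all tested members rose, and in the other clusters some did not. All 3 genes of the 65E cluster rose. Cpr65Ea had 2457 and 1532 on the early and 10901 and 15654 on the late control arrays (2.75 ± 0.62, adjusted p = 0.00229). Cpr65Eb went from 192 and 55.2 to 1578 and 1414 (14.5-fold, adjusted p = 8.29e-05), and Cpr65Ec from 460.5 and 330.2 to 1279.6 and 2053 (4.16-fold, adjusted p = 0.0044). For each of the 3 the early and late arrays did not overlap.

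At 84A, where Ccp84A genes lie beside Edg84A, 4 of the 5 tested genes rose. Ccp84Ag had 1503 and 1823 at 8 to 10 h and 10749 and 10708 at 14 to 16 h, a 6.48-fold rise (2.70 ± 0.60, adjusted p = 0.002). Ccp84Ac rose 5.02-fold, and the probe set shared by Ccp84Aa and Ccp84Ab rose as well (2.60 ± 0.45, adjusted p = 0.000288). The exception was Edg84A, named for its response to ecdysone, the moulting hormone, with 422 and 762 and then 709 and 549 (0.14 ± 0.31, adjusted p = 0.751). Edg84A and the neighbouring Ccp84A genes thus differed in call while lying in the same cluster.

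At 64A, 3 of 4 genes rose. Cpr64Ad went from 2561 and 3076 to 16532 and 16929 (5.96-fold, adjusted p = 2.38e-06) and Cpr64Ab from 1237 and 1194 to 7099 and 7801 (6.12-fold, adjusted p = 2.11e-06), and Cpr64Ac was 1057 and 1213 and then 754 and 1017 (-0.37 ± 0.30, adjusted p = 0.34). Cpr64Ac and its neighbours therefore did not move together. All 3 tested genes of the 78C cluster rose (1.61 to 2.44), as did both tested genes at 62B.

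The 49A and 47E clusters differed from each other. At 49A, 4 of 6 members were tested and all 4 rose, by 1.97 to 2.71 on the log2 scale, from low early values. Cpr49Ac was at the floor on both early control arrays and 181 and 288 on the late ones, at least 4.8-fold higher (adjusted p = 0.001). Cpr49Ae was also at the floor early and then 164 and 294, at least 4.62-fold higher (adjusted p = 0.00481, 0.0654 without replicate 2 of the late control). These 2 genes were the only ones of the 71 that went from the floor on both early to above it on both late control arrays. At 47E, 3 of 7 members were tested: Cpr47Eb and Cpr47Eg rose, Cpr47Ed did not pass (-0.63 ± 0.31), and Cpr47Ea, Cpr47Ec, Cpr47Ee and Cpr47Ef were too dim.

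Cpr56F rose from 480.4 and 230.3 to 1513 and 1947 (5.16-fold, adjusted p = 0.0123). The call was lost without replicate 2 of either control group, with adjusted p up to 0.0984. Cpr23B, Cpr31A, Cpr49Af, Cpr62Bc, Cpr76Bb, Cpr78Cc and Cpr92F complete the 20 with the largest rise, between 2.30 and 2.79. The calls of Cpr76Bb and Cpr92F were lost without replicate 1 of the early or replicate 2 of the late control, and that of Cpr76Bb also without replicate 1 of the late control (adjusted p up to 0.161 and 0.158).

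Genes named for later stages were above the floor in part. Of 5 members named for the larval cuticle, Lcp65Ac rose from 559 and 562 to 2536 and 2739 (4.7-fold, adjusted p = 0.000397), Lcp65Aa and Lcp65Af did not pass, and Lcp65Ad and Lcp9 were too dim to test. Both probe sets of Lcp65Ag genes were positive, and the one for Lcp65Ag1 and Lcp65Ag2 passed (2.58 ± 0.53, adjusted p = 0.00112) while the one that also matches Lcp65Ag3 did not (1.25 ± 0.81, 0.231). Acp65Aa, named for the adult cuticle, was at the floor on both arrays of both controls. Of the 3 genes named for the pupal cuticle or ecdysone, Edg84A was tested and did not pass. Pcp and Edg78E were too dim on average over all arrays to test. On the late control arrays Pcp was 159 and 98.8, Edg78E 154 and 171 and Lcp65Ad 219 and 178, while Lcp9 was at the floor.

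The 3 genes that fell were Cpr50Ca, Cpr72Ea and Cpr78E. Cpr50Ca had 181 and 262 early and 79.3 and 93.9 late (-1.33 ± 0.47, adjusted p = 0.0323), and its neighbour Cpr50Cb had 495 and 347 and 954 and 992 (1.23 ± 0.59, 0.102). Cpr72Ea fell by 1.83, while Cpr72Eb beside it rose by 1.04. Cpr78E was 238 and 124 and then at the floor, at least 3.62-fold lower (adjusted p = 0.0458). Each of these 3 falls was lost without at least 1 of the 4 control arrays, replicates 1 and 2 of the late control among them. The fall of Cpr78E was also lost with no filter on dim probe sets (adjusted p = 0.0727). Of the 38 calls, 22 held without each of the 18 arrays in turn, among them those of Cpr47Eb, Cpr49Ac, Cpr51A, Cpr65Ea, Cpr65Eb, Cpr66Cb, Cpr66D and Ccp84Ag.

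Other genes of cuticle formation rose over the same interval. Of 18 tested Tweedle genes, another family of cuticle proteins, 14 rose and none fell (median 2.48), TwdlM the least at 2.08 ± 0.23. Of 18 tested genes of chitin synthesis and organisation 12 rose and 2 fell, among them obst-A, a chitin-binding matrix protein (3.29 ± 0.23, adjusted p = 1.31e-07), verm, a chitin deacetylase (1.94 ± 0.20, 4.09e-06) and knk, needed for chitin fibre order (2.36 ± 0.42, 0.000385). Of 7 tested tanning genes 6 rose, among them Ddc, dopa decarboxylase (3.41 ± 0.60, adjusted p = 0.000343), and ple, tyrosine hydroxylase (1.40 ± 0.42, 0.0136). Of 8 tested regulators, ftz-f1, a nuclear receptor of the ecdysone cascade, rose (2.73 ± 0.34, 2.1e-05), and 4 fell, Blimp-1 the most (-3.62 ± 0.67, 0.000525). Of 7 apical matrix genes with a zona pellucida domain or similar, 3 rose and 1 fell.

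Markers of the cells that the embryo holds also moved with age. Of 12 genes of epithelial junctions, which stand for the epidermis here, 1 rose and 6 fell, and their summed signal was 19331 to 23063 on the early and 13070 to 13247 on the late control arrays. Of 4 tested tracheal markers 2 rose and 1 fell (summed signal 2202 to 2333 and then 6897 to 7497, with btl at the floor late). All 7 tested muscle genes rose (13110.3 to 17734 and then 72986 to 75374) and all 7 midgut genes rose (1740.3 to 3522 and then 12210.5 to 23024), and of 3 neuronal markers 1 rose and 1 fell (1558 to 2828 and then 864 to 949). No muscle, midgut, epithelial or neuronal marker was at the floor on both arrays of either control. The part of cell type shares in the family's rise was not tested.

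E2f1 mutants were also compared between the 2 ages, on 4 arrays that the control comparison does not use. The way of picking differs between these ages. In the mutants 24 of the 54 tested members rose and 1 fell, where 13.9% of all units rose and 21.7% fell. The median log2 change of the 54 was 1.07, against -0.15 over all units. With no filter on dim probe sets, 22 rose and 1 fell among all 71, again not set against all units of that fit. The largest rises were those of Cpr65Eb (77.2 and 115 to 2445 and 2374, 25.6-fold), Cpr66Cb (22.6-fold) and Cpr66D (22.5-fold), at adjusted p = 2.4e-05, 6.82e-05 and 0.00023. Cpr62Bb, Cpr51A, Cpr23B, Cpr56F and Ccp84Ac followed, with log2 changes of 2.92 to 3.26. Cpr51A reached 10628 and 10535 in the late mutants, beside 7733 and 11792 in the late control.

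Most genes that rose in the mutants rose in the control too. The calls of 21 genes were shared, which is 60% of those that rose in the control and 87.5% of those that rose in the mutants, where over all units the shares were 58.6% and 74.1%. The sign was the same in both comparisons for 40 of 54 members (74.1%, against 76.8% of all units). Cpr50Ca fell in both (-1.26 ± 0.47 in the mutants, adjusted p = 0.0488). Of the 35 genes that rose in the control, 6 had a change below 0 in the mutants (Cpr11A, Cpr47Eb, Cpr49Ac, Cpr49Af, Cpr72Eb and Cpr76Bb), as the plot of the 2 changes against each other shows, and none of these 6 passed as lower there.

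**Figure D2:**
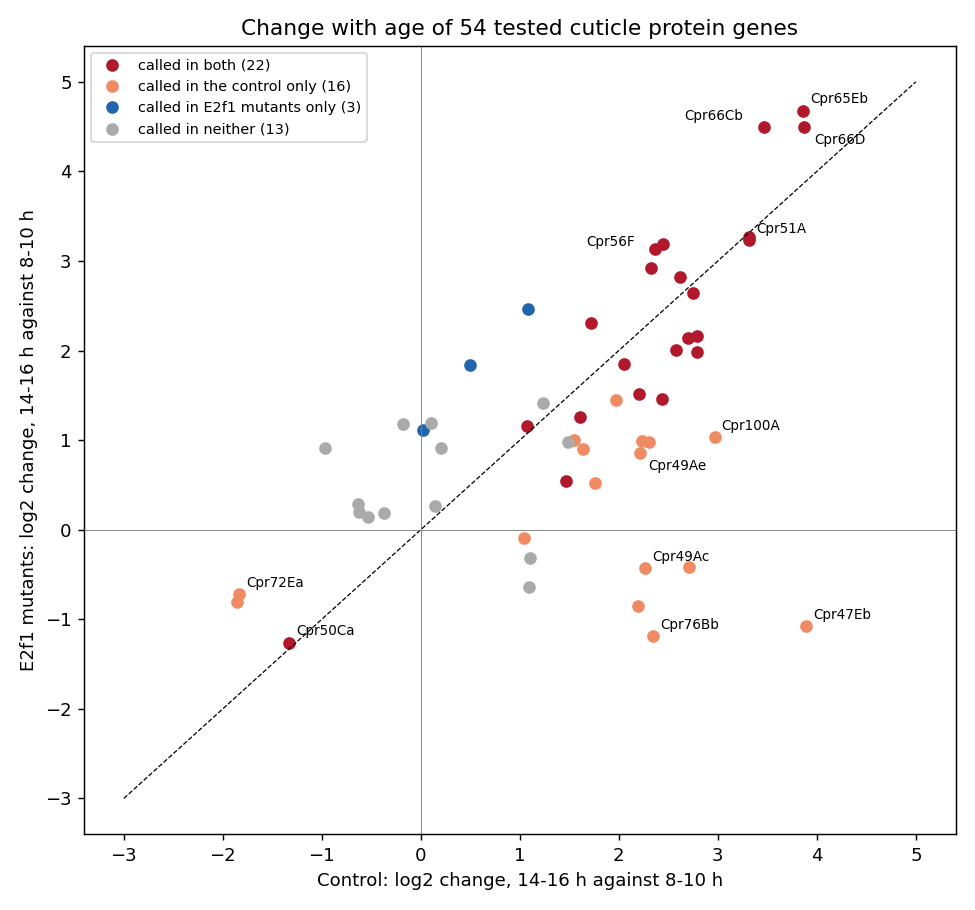
Log2 change between 14 to 16 h and 8 to 10 h in the control (horizontal) and in E2f1 mutants (vertical) for 54 tested cuticle protein genes, coloured by which of the 2 comparisons passed an adjusted p of 0.05, with a dashed line of equal change. Cpr65Eb, Cpr66D and Cpr66Cb lie at the upper right, and Cpr47Eb, which rose by 3.89 in the control, lies at -1.08 in the mutants.

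Of the 25 mutant calls 12 held without each array in turn. The number called was 12 without replicate 1 of the early E2f1 mutants and 14 without replicate 1 of the late ones, and Cpr56F, Ccp84Ag and Cpr50Ca were among those lost (adjusted p up to 0.051, 0.083 and 0.238). The fall of Cpr50Ca was also lost with no filter on dim probe sets (adjusted p = 0.0603).

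At 14 to 16 h, few members differed between E2f1 mutants and the control by more than the test allows. None of the 54 tested genes passed as higher and 2 passed as lower, where 1.76% of all units passed as higher and 3.84% as lower. The median log2 change was -0.000369 against 0.06 over all units. The mutant and control arrays did not overlap for 11 members that were higher and 17 that were lower, against 28.7% and 23.1% of all units.

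The 2 genes that fell were Cpr76Bb and Cpr47Eb. Cpr76Bb had 473 and 506 in the control and was at the floor on both mutant arrays, at least 10.3-fold lower (-3.37 ± 0.73, adjusted p = 0.0122). Cpr76Ba, its neighbour and too dim to be tested, was 142 and 392 in the control and at the floor on both mutant arrays, while Cpr76Bc was 263 and 278 and 432 and 314. Cpr47Eb was 559 and 1054 in the control and 199 and 147 in the mutants, 4.49-fold lower (-2.17 ± 0.56, adjusted p = 0.0324). For both genes all mutant arrays lay below all control arrays, yet both calls were lost without any 1 of these 4 arrays, with adjusted p up to 0.0929 for Cpr76Bb and 0.231 for Cpr47Eb. With no filter on dim probe sets, the call of Cpr47Eb was lost as well (adjusted p = 0.0754). Midgut markers moved with this comparison: 3 of 7 fell, their median change was -1.41, and their summed signal was 5316 to 7063 in the mutants against 12210.5 to 23024 in the control. Their part in the result was not tested.

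Among the marker genes that did not pass, Cpr65Ea was 20741 and 16713 in the mutants and 10901 and 15654 in the control (0.51 ± 0.62, adjusted p = 0.76). Ccp84Ag was 12929 and 8989 against 10749 and 10708 (0.01 ± 0.60), with the control inside the range of the mutants. Cpr49Ae overlapped too, at 148 and 346 against 164 and 294. Cpr49Ac went the other way, with 614 and 535 in the mutants above 181 and 288 in the control (1.33 ± 0.46, adjusted p = 0.113, not passed).

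At 8 to 10 h Cpr49Ac and Cpr47Eb were higher in E2f1 mutants than in the control. These 2 of the 54 tested genes passed, where 2.55% of all units passed in either direction. The median log2 change of the members was 0.04. Cpr49Ac was at the floor in the control and 885 and 675 in the mutants, at least 16.3-fold higher (4.02 ± 0.46, adjusted p = 0.000261), and this call held without each array in turn. Cpr47Eb was the floor and 56.2 in the control and 222 and 588 in the mutants (2.81 ± 0.56, adjusted p = 0.0141). This call was lost when replicate 1 of the control or replicate 2 of the mutants was left out (adjusted p up to 0.127). Of the 7 midgut markers 2 passed as higher, and their summed signal was 8666 to 8732 in the mutants against 1740.3 to 3522 in the control. Their part in the result was not tested. Cpr12A, the lower gene with the smallest p, did not pass (-0.93 ± 0.30, adjusted p = 0.103).

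The difference between the E2f1 mutant effects at the 2 ages, which also differ in how mutants were picked, was tested as an interaction. It passed for 2 of the 54 members, Cpr47Eb and Cpr49Ac, both lower at the late age, where 2.75% of all units passed in either direction. For Cpr47Eb the effect was 2.81 at 8 to 10 h and -2.17 at 14 to 16 h, a difference of -4.97 ± 0.79 (adjusted p = 0.00297) that held without each array in turn. For Cpr49Ac it was 4.02 and 1.33, a difference of -2.69 ± 0.65 (adjusted p = 0.0359). The early control was at the floor for Cpr49Ac, so its early effect and the size of this difference are lower bounds. This call was lost without 7 of the 8 arrays compared, all but replicate 2 of the early control, and without replicate 1 of Rbf1. With no filter on dim probe sets it was lost as well (adjusted p = 0.0687). In the other direction Cpr12A had the smallest p and did not pass (1.09 ± 0.42, 0.188). The midgut markers moved with this result: 5 of 7 passed the same interaction as lower, and their summed signal was 8666 to 8732 in the early and 5316 to 7063 in the late mutants. Their part in the result was not tested.

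In Dp mutants at 8 to 10 h, Cpr49Ac and Cpr47Eb were likewise higher than in the control. These 2 of the 54 passed, where 4% of all units passed in either direction, and the median was 0.28 against -0.04 over all units. Cpr49Ac was 281 and 395, at least 7.01-fold above the control (adjusted p = 0.00447), and Cpr47Eb was 401 and 446, 8.18-fold higher (adjusted p = 0.00869). The lower gene with the smallest p, Cpr73D, did not pass (-1.64 ± 0.76, 0.248). The call of Cpr49Ac held without each array, and that of Cpr47Eb was lost without replicate 1 of the control or of the Dp mutants (adjusted p up to 0.0725). Both mutant comparisons use the same 2 control arrays, so the shared calls are not separate evidence about that control.

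The 2 Dp mutant arrays differed in the family. Replicate 1 was more than 1 unit of log2 higher than replicate 2 for 18 of the 71 members and lower by as much for 0, where 6.12% of all probe sets were higher by as much and 4.6% lower. Cpr47Eg was 13263 on replicate 1 and 3944 on replicate 2, and Cpr78Cc was 1735 and 706. The 2 arrays of E2f1/Dp split in the same direction, with 17 members more than 1 unit of log2 higher on replicate 1 and 5 on replicate 2, against 7.41% and 7.38% of all probe sets. More members passed against the control without Dp mutant replicate 2 than without replicate 1, a difference that was not set against all units.

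Midgut and muscle markers were also higher on replicate 1. The summed signal of the midgut markers was 27950.3 on replicate 1 and 12552 on replicate 2 of the Dp mutants, against 1740.3 to 3522 in the control, and 5 of 7 passed as higher than the control. That of the muscle markers was 38241 and 17025, against 13110.3 to 17734 in the control, and 0 of 7 passed. With E2f1/Dp the sums were 8698 and 4525 for midgut and 32579 and 19225 for muscle on replicates 1 and 2. The summed signal of the epithelial junction genes was 21185 on replicate 1 and 27472 on replicate 2 of the Dp mutants and 19331 to 23063 in the control. The part of these cell types in the result was not tested.

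E2f1 mutants and Dp mutants at 8 to 10 h were also set against each other, with no control array in the comparison. No member passed, where 0.992% of all units passed in either direction, and the median over members was -0.33 against 0.03 over all units. With no filter on dim probe sets, the count that passed was 0 as well. Cpr67Fa2 came closest, at the floor and 62.5 in E2f1 mutants and 493 and 181 in Dp mutants (-2.46 ± 0.60, adjusted p = 0.0631), and its transcript cannot be separated with confidence from that of its near copy Cpr67Fa1. Cpr49Ac was 885 and 675 and 281 and 395 (1.22 ± 0.46, adjusted p = 0.243), so the arrays did not overlap and the test did not pass.

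With the E2f1 fragment, part of the family fell. Of the 54 tested genes 9 passed as lower and 1 as higher, where 0.691% of all units passed as lower and 0.1% as higher. The median log2 change was -0.63 against -0.00351 over all units. The arrays did not overlap for 23 members that were lower and 5 that were higher, against 18.3% and 18% of all units. The 9 were Cpr65Ea, Cpr65Ec, Cpr47Eg, Lcp65Af, Lcp65Ac, Ccp84Ag, Cpr51A and Cpr78Cc, with log2 changes of -3.56 to -2.36, and Cpr64Ad (-1.21 ± 0.25). All but Lcp65Af had risen with age in the control.

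The calls of Lcp65Ac and Cpr51A had the smallest adjusted p of the 9. Lcp65Ac was 559 and 562 in the control and 61.4 and 81.8 with the fragment, 7.91-fold lower (-2.98 ± 0.40, adjusted p = 0.00152). Cpr51A was 1202 and 764 and then 139 and 154, 6.53-fold lower (-2.71 ± 0.33, adjusted p = 0.000923). The calls of Lcp65Ac, Cpr51A and Cpr49Ac held without each array in turn and also with no filter on dim probe sets.

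The other falls were measured less evenly. Cpr65Ea was 2457 and 1532 in the control and 56.5 and 475 with the fragment (-3.56 ± 0.62, adjusted p = 0.00975). Ccp84Ag was 1503 and 1823 against 83.6 and 569 (-2.92 ± 0.60, 0.0336), and Cpr47Eg was 3184 and 6350.1 against 248 and 1229 (-3.02 ± 0.65, 0.0401). For these 3 genes, replicate 1 of the fragment was the lower array by 4 times or more. Cpr65Ec and Lcp65Af were at the floor on both fragment arrays, at least 8.21-fold and 8.02-fold lower (adjusted p = 0.00784 and 0.0393), and Cpr78Cc was 367 and 559 against the floor and 163 (0.0363).

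Each of these 6 calls, and that of Cpr64Ad, was lost without at least 1 array. Among the 4 arrays compared, Cpr65Ea lost it without replicate 1 of the early control (adjusted p = 0.0915), Cpr65Ec without that array or replicate 1 of the fragment, and Ccp84Ag, Cpr47Eg and Cpr78Cc without these 2 or replicate 2 of the early control. Lcp65Af lost it without any of the 4 arrays compared. The highest adjusted p for the last 5 were 0.0776, 0.169, 0.326, 0.289 and 0.175. Fewer members were called without either replicate of the early control, replicate 1 of the fragment, or any array at 14 to 16 h. With no filter on dim probe sets, 3 members were called, a count not set against all units of that fit.

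Near-identical genes that share a probe set were read apart from the 54. The probe set for Cpr67Fa1 and Cpr67Fa2 fell (-3.78 ± 0.32, adjusted p = 3.16e-05), as did that for Lcp65Ag1 and Lcp65Ag2 (-2.40 ± 0.53, 0.048) and that for Lcp65Ag1, Lcp65Ag2 and Lcp65Ag3 (-3.70 ± 0.81, 0.0484). The Ccp84Aa and Ccp84Ab probe set did not pass (-1.90 ± 0.45, 0.0648), and Cpr65Av with Cpr65Aw was 0.80 ± 0.54 (0.661). The probe set named for Cpr67Fa2 alone was at the floor on both fragment arrays and on 1 of the 2 control arrays, so it has only a bound there.

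Cpr49Ac was the gene that rose with the fragment. It was 311 and 526 on the 2 arrays against the floor in the control, at least 8.51-fold higher (3.09 ± 0.46, adjusted p = 0.00295). Its neighbour Cpr49Ae was at the floor on all 4 arrays, and Cpr47Eb was 188 and 60 (1.04 ± 0.56, adjusted p = 0.559). Cpr78Ca, next by p among the higher genes, was 217 and 196 against 73.7 and 67.1 and did not pass (1.55 ± 0.45, 0.161). In the plot of all 54 changes Cpr49Ac is the highest point. Cpr64Ad, with the smallest of the 9 falls, lies above genes that did not pass, among them Cpr56F (-2.21 ± 0.69, 0.207) and Cpr67B (-1.68 ± 0.59, 0.267).

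**Figure D3:**
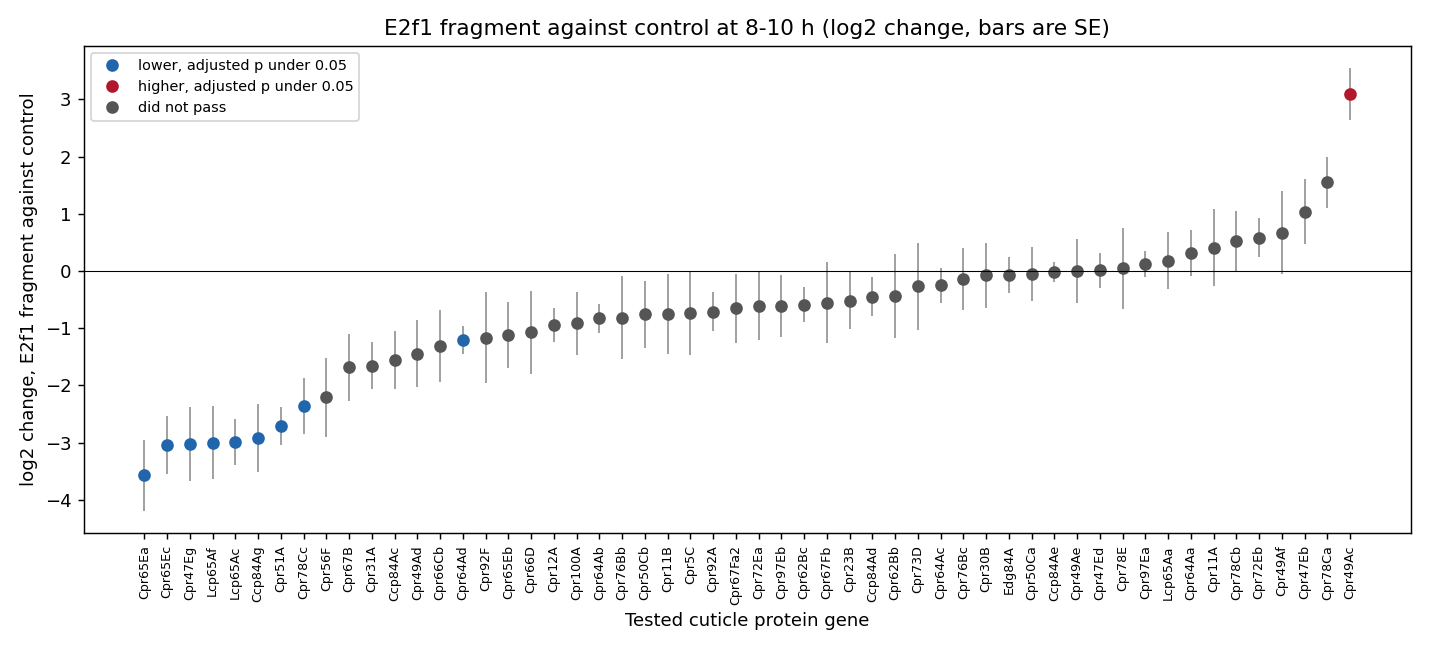
Log2 change of the 54 tested cuticle protein genes with the E2f1 fragment against the 8 to 10 h control (points, with bars of 1 SE), sorted by size and coloured by whether the adjusted p was under 0.05. The 9 genes that fell lie between -3.56 and -1.21, and Cpr49Ac, at 3.09, is the 1 that rose.

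Other cuticle genes and muscle genes moved with this result. Of 18 tested Tweedle genes 4 fell with the fragment and none rose (median -1.12), and of 18 chitin genes obst-E fell (-3.81 ± 0.42, adjusted p = 0.000479). No tanning gene, regulator or apical matrix gene passed. Of 7 muscle genes 4 fell (Mlc1 at -2.87, Mlc2 at -3.01, Tm2 at -3.19 and Prm at -3.34), and their list's summed signal was 1667 to 3818 with the fragment and 13110.3 to 17734 in the control, with Prm at the floor with the fragment. No epithelial junction gene passed, and their summed signal was 25604 to 28996 with the fragment and 19331 to 23063 in the control. No midgut, tracheal or neuronal marker passed. The part of the muscle list in the result was not tested.

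With Rbf1, Cpr65Ec fell. It was the 1 of the 54 members that passed, where 1.44% of all units passed in either direction, and the median log2 change was -0.63 against 0.01 over all units. Cpr65Ec was 460.5 and 330.2 in the control and 67.8 and 93.7 with Rbf1, 4.89-fold lower (-2.29 ± 0.51, adjusted p = 0.0352). The call was lost without replicate 1 of the control or either Rbf1 array, and with no filter on dim probe sets (adjusted p = 0.099). Muscle markers moved with this comparison: 1 of 7, Prm, fell, their median change was -0.81, and their summed signal was 7259 to 8876 with Rbf1 against 13110.3 to 17734 in the control. Their part in the result was not tested. The probe set of Cpr67Fa1 and Cpr67Fa2 fell as well (-1.38 ± 0.32, 0.0435). Cpr50Cb, next by p among the lower genes, did not pass (-1.86 ± 0.59, 0.152). Cpr49Ac was 194 and 158 against the floor and did not pass (1.88 ± 0.46, adjusted p = 0.0547).

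With E2f2/Dp 1 member passed, Cpr49Ac, which was higher, where 0.078% of all units passed in either direction. It was 240.5 and 427 on the 2 arrays. The call was lost without replicate 1 of the control or either E2f2/Dp array, and with no filter on dim probe sets (adjusted p = 0.0807). Cpr47Eb was 270.2 and 202 (2.18 ± 0.56, adjusted p = 0.293) and Cpr66D was 55.8 and the floor against 207 and 161 (-1.83 ± 0.73, 0.486), neither of which passed. The median over members was -0.25.

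With E2f1/Dp no member passed, where 0.0891% of all units passed in either direction. The count that passed was 0 with no filter on dim probe sets as well. The median over members was 0.32 against -0.02 over all units. Cpr47Eb came closest, at 354 and 209.8 (2.40 ± 0.56, adjusted p = 0.164). Cpr72Ea was the lower gene with the smallest p (-1.36 ± 0.60, adjusted p = 0.55).

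Cpr49Ac and Cpr47Eb were set apart by their low level in the early control. Both control arrays at 8 to 10 h lay below all 16 other arrays for these 2 of the 71 members, a pattern shared by 53 of 8975 units (0.591%) and looked for after the values were seen. For Cpr49Ac the control was at the floor and all 16 other arrays lay above it, as for 4 of 8975 units (0.0446%). Its replicates were 123 and 49.3 with E2f1/Dp, the nearest to the floor, and 885 and 675 in early E2f1 mutants, the highest. For Cpr47Eb the nearest to the control were 64.6 and 91.1 with Rbf1 and 188 and 60 with the fragment, and the late control had 559 and 1054. Since the same 2 control arrays enter each comparison at 8 to 10 h and the change with age in the control, the rises of these genes across them rest on the same 2 readings. The plot of single arrays shows both genes beside Cpr49Ae, Cpr65Ea, Ccp84Ag and Cpr76Bb.

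**Figure D4:**
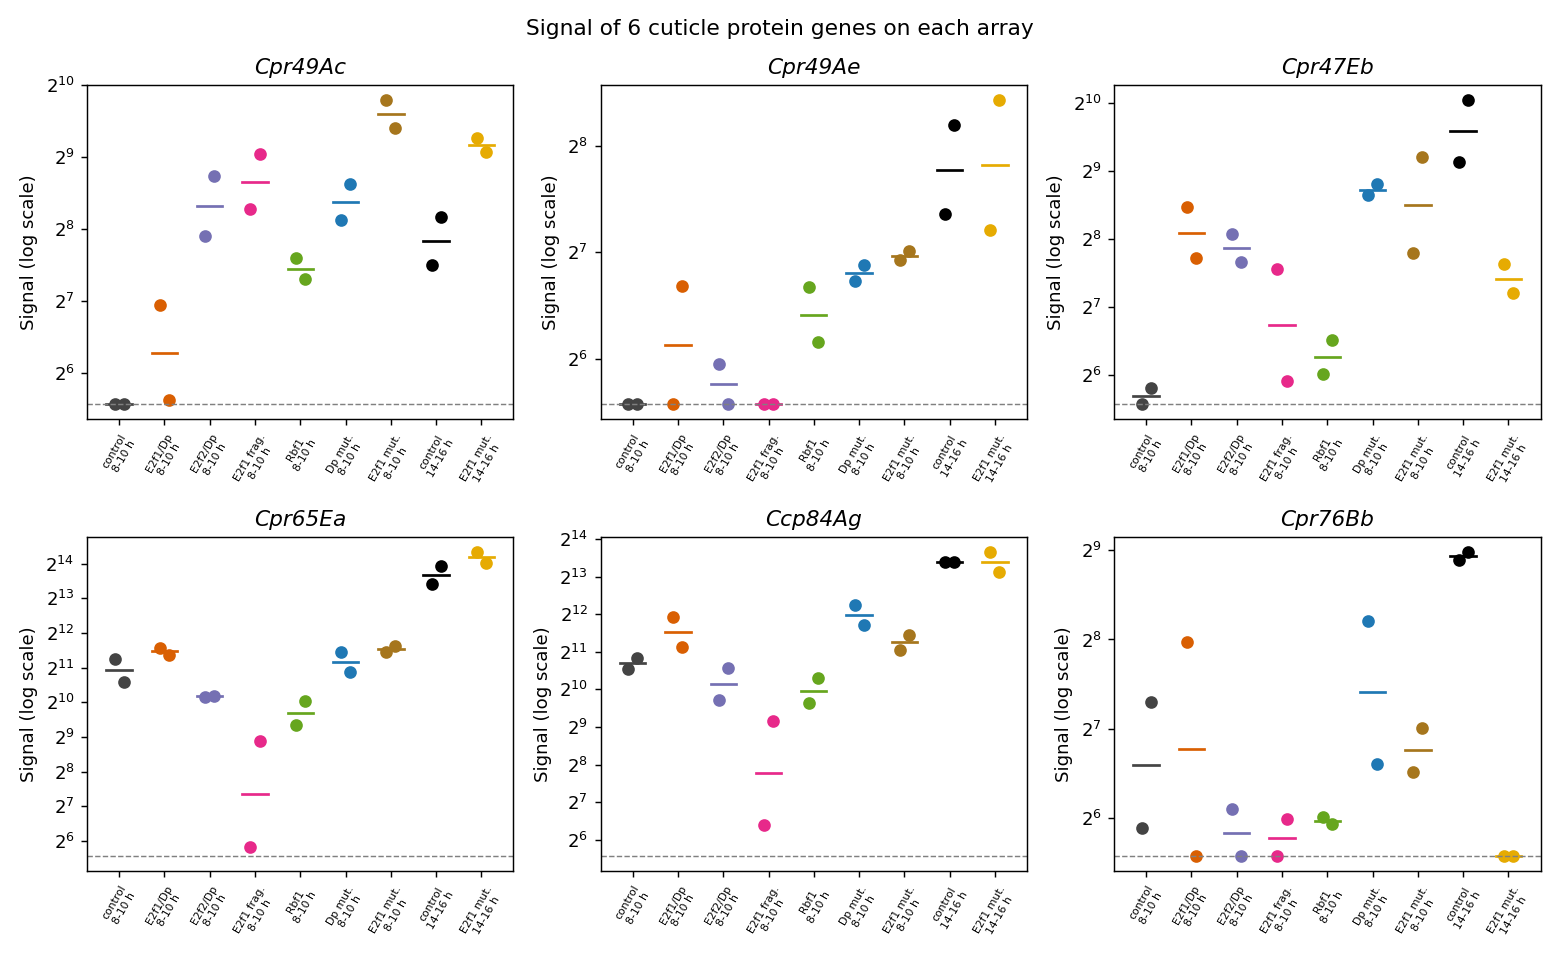
Signal of Cpr49Ac, Cpr49Ae, Cpr47Eb, Cpr65Ea, Ccp84Ag and Cpr76Bb (log axis) on each of the 18 arrays by group, with a bar at the mean of the log values and a dashed line at the floor of 47.5. Cpr49Ac and Cpr47Eb are lowest in the 8 to 10 h control, Cpr65Ea and Ccp84Ag are lowest with the E2f1 fragment, and Cpr76Bb is at the floor in the late E2f1 mutants.

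The order of groups differed between these genes. For Cpr65Ea, the fragment was lowest (56.5 and 475), Rbf1 (650.0 and 1050.4) and E2f2/Dp (1145 and 1164) came next, and the other early groups lay between 1532 and 3142, each overlapping the next in order. For Ccp84Ag the fragment was lowest, and the other early groups ran from 792 to 4889.96, each overlapping the next in order except the control and E2f1 mutants. For both genes every late array lay above every early array. For Cpr49Ae the fragment and the control were at the floor, and E2f1/Dp (the floor and 103) and E2f2/Dp (61.9 and the floor) each had 1 array there. Its early mutants, Dp (106 and 118) and E2f1 (122 and 129), did not pass against the control (adjusted p = 0.231 and 0.189).

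The mean log2 signal of the 71 genes was set beside an index of the apparent age of each array. The index was taken from 300 genes that rose and 300 that fell most between the controls, with this family and all the gene lists above left out, and scaled to 0 and 1 at the control means. The fragment arrays had an index of -0.09 and -0.05, beside -0.06 and 0.06 in the early control, and the lowest family mean (7.04 and 7.12). Rbf1 had 0.01 and 0.02 with a family mean of 7.25 and 7.22, below the control's 7.63 and 7.67. E2f2/Dp had 0.05 and 0.07 with 7.48 and 7.52, also below the control, and E2f1/Dp had 0.14 and 0.11 with 8.16 and 7.78. Dp mutant replicate 1 had an index of 0.33 and a family mean of 8.27, and replicate 2 had 0.16 and 7.68. Early E2f1 mutants, with an index of 0.21 and 0.24, had 7.66 and 7.83, no higher than Dp mutant replicate 1. Late E2f1 mutants had an index of 0.88 and 0.87 and a family mean of 8.84 and 8.64, beside 8.89 and 9.02 in the late control. The 4 late arrays were highest and the fragment arrays lowest in family mean, but among the other early arrays the order by index and the order by family mean differed. Replicate 1 of E2f1/Dp, for instance, had a lower index and a higher family mean than either early E2f1 mutant array. The part of apparent age in the results was not tested.

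**Figure D5:**
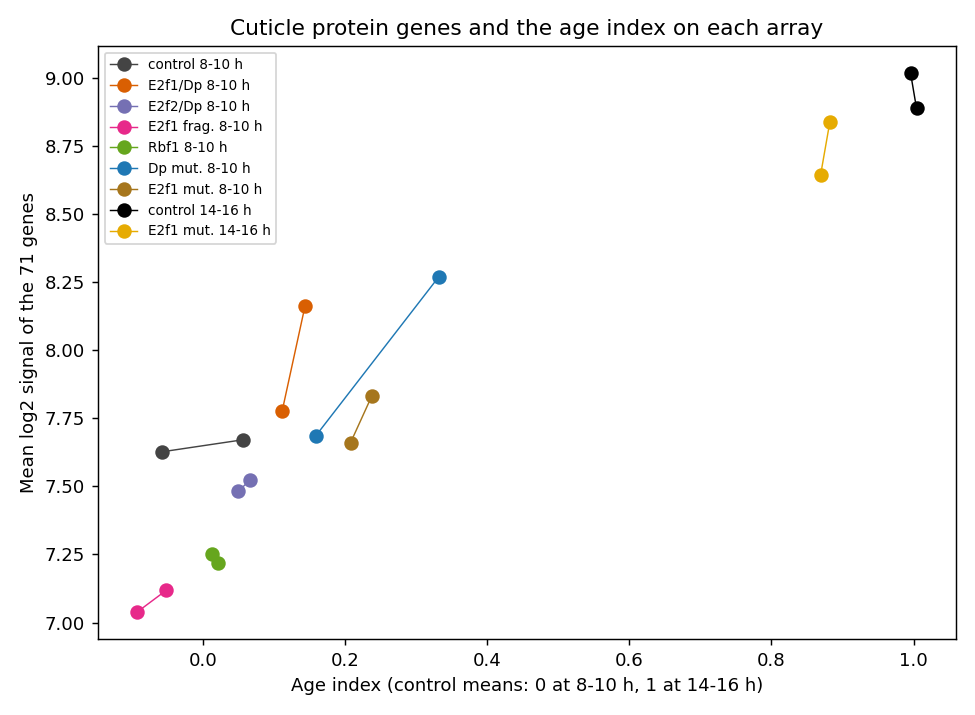
Mean log2 signal of the 71 cuticle protein genes (vertical) against an age index from other genes (horizontal, 0 and 1 at the means of the controls) for each of 18 arrays, with lines that join the 2 arrays of a group. The E2f1 fragment and Rbf1 arrays lie lowest, at 7.04 to 7.25, and the 4 arrays of 14 to 16 h lie highest, at 8.64 to 9.02.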

How the data were processed

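The authors deposited 1 table of linear probe-set intensity for 18 Affymetrix arrays with 13966 probe sets. The file's values show arrays scaled to a common level (mean after trimming 2% at each end, 495 to 498). The software that made the probe-set values is not given in the sources used here.

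The deposited intensities were quantile normalised, raised to a floor at their 20th percentile (signal 47.5) where lower, and put on a log2 scale. Probe sets in the dimmest 30% by mean were dropped, and each gene kept its brightest probe set, which left 8975 units. Of the probe sets, 12443 match 1 gene, 327 several and 1196 none in the platform annotation, whose symbols were updated through the R6 RefSeq gene table. A total of 9 group means were fitted to all 18 arrays with limma 3.58.1 in R 4.3.3 (lmFit, eBayes with a trend, 9 residual degrees of freedom). Tests were two-sided with Benjamini-Hochberg adjustment over all units and a threshold of 0.05. Errors are standard errors of log2 changes, and the number of arrays limits the precision. Where 1 group was at the floor on both arrays the fold is given as a lower bound, and other folds are taken on the floored log2 scale. The fit was tested on simulated data.

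Members and gene lists were chosen with earlier results of these data known. Named genes were the 5 markers (Cpr49Ac, Cpr49Ae, Cpr47Eb, Cpr65Ea and Ccp84Ag), up to 20 rises and 8 falls for control age, up to 8 per direction elsewhere, and the smallest p where fewer than 2 passed. Cpr11A, Cpr47Ed, Cpr50Cb, Cpr64Ac, Cpr67B, Cpr72Eb, Cpr76Ba, Cpr76Bc and the ninth fall with the fragment, Cpr64Ad, were named after their values were seen, as neighbours or to complete a count. Neighbouring genes are those within 100 kb. Replicate numbers did not pair the samples (correlation of deviations -0.161 to 0.150 over 36 pairs), so no block was used. The alternatives kept the deposited scaling, centred arrays on their medians, added 50 before the log2 in place of the floor, dropped no probe sets or the dimmest 50%, tested all probe sets of a gene, added a replicate block, or left out each array. No protein, promoter or genome sequence was used here.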

Additional observations from a re-analysis of the deposited data

Results flagged for a closer look

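The E2f1 mutant effect differed between the 2 ages for Cpr47Eb and Cpr49Ac, by the interaction term in limma with Benjamini-Hochberg adjustment. These are 2 of 54 tested members, where 2.75% of all units passed in either direction. The way of picking the mutants differs between these ages too. For Cpr47Eb the effect at 14 to 16 h minus that at 8 to 10 h was -4.97 on the log2 scale (adjusted p = 0.00297), with the mutants higher on both arrays at the early and lower on both at the late age. For Cpr49Ac it was -2.69 (adjusted p = 0.0359), with the mutants higher on both arrays at both ages. Its early control was at the floor, so the size of this difference is a lower bound. The adjusted p of Cpr47Eb ranged from 0.00139 to 0.0178 over the alternatives run, and that of Cpr49Ac from 0.0177 to 0.122. Cpr47Eb passed in 24 of 24 alternatives and Cpr49Ac in 16 of 25, and not with no filter on dim probe sets.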

How the results depend on the processing

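The signs of the changes of named members and the counts of members called were recomputed under 7 other settings and without each of the 18 arrays. No named change that had passed the test reversed. Named changes near 0 that did not pass could change sign without 1 array, as that of Ccp84Ag in late E2f1 mutants did. The counts below were not set against all units of the same fit. With the dimmest 50% of probe sets dropped, members called numbered 24 for control age, 0 and 1 for E2f1 mutants at 14 to 16 h and 8 to 10 h, 1 for Dp mutants and 2 for Rbf1. That filter removes dim members, so fewer were tested. With no filter, 1, 0, 3, 0 and 1 members were called for late E2f1 mutants, E2f2/Dp, the E2f1 fragment, Rbf1 and the interaction. The replicate block, added though the numbers share no more than a label, left 0 for E2f2/Dp and 6 for the fragment and moved no other count of members by more than 1.5 times. The deposited scaling gave 3 for Dp mutants. Without 1 array at a time, the count was 26 to 39 for control age, 12 to 28 for mutant age, 0 to 3 for late and 1 to 2 for early E2f1 mutants, 1 to 5 for Dp mutants, 0 to 1 for E2f2/Dp, 3 to 11 for the fragment, 0 to 2 for Rbf1, 0 to 3 between the mutants and 1 to 4 for the interaction. Leaving out an array also lowers the degrees of freedom for every comparison, and a group left with 1 array is taken to vary like the others. Members at the floor in a group have only bounds there, and 2 arrays per group limit the precision of every value.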
